A study of Mus musculus with 3 samples.

Results

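Macrophages of the mouse dorsal root ganglion (DRG) were taken from 1 droplet-based single-cell RNA library of whole ganglia. A barcode, the tag that stands for 1 cell, was taken as a macrophage when it held at least 1000 unique molecular identifiers (UMIs, each standing for 1 captured transcript), a UMI of at least 3 of the 6 genes C1qa, C1qb, Adgre1, Mrc1, Csf1r and Cd68, and 0 UMIs of the neuronal gene Rbfox3, the endothelial gene Pecam1, the fibroblast gene Pdgfra and the T cell gene Cd3e. This gate held 474 of the 23566 barcodes of the DRG library, or 2.01% (95% exact Clopper-Pearson interval 1.84 to 2.20%), and of 81584 barcodes in all 3 libraries of the series. Every interval given here covers counting error only.

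The series concerns sensory nerves and fibroblast growth factor signalling in tendon degeneration, and it holds 3 libraries of C57BL/6 mice with 1 library per group. The DRG library pooled 18 lumbar and sacral ganglia (L4 to S1) of 6 mice whose left Achilles tendon sheath had received 5 µL of a viral vector at 4 weeks of age, 4 weeks before harvest. The labels name this vector as AAV-PHP.S-tdTomato in one field and as a lentivirus in another, and they differ on whether ganglia of the injected side alone or of both sides were taken. The tendon neurectomy library came from Achilles tendons of 5 mice whose sural nerve was cut 1 week before 4 weeks of dorsiflexion immobilisation, and the tendon sham library from 5 mice with the nerve exposed only and the same immobilisation; whether the mice were pooled is not said. DRGs were digested with papain, collagenase A and dispase II and enriched on an Optiprep gradient, and tendons with collagenases I and P and dispase II followed by lysis of red cells. The same gate took 957 barcodes of the tendon sham library and 879 of the tendon neurectomy library. Ganglion and tendon gates therefore differed in tissue, operation, digestion, gene annotation and library at once, and these cannot be told apart. The sex of the pools moved with them too: Xist, the RNA that coats the inactive X chromosome of females, had 0 UMIs in the DRG gate, against 781 CPM in the tendon sham gate and 979 CPM in the tendon neurectomy gate. Ddx3y, a gene of the Y chromosome, had 126 CPM in the DRG gate, 9.09 CPM in the tendon sham gate and 0.250 CPM in the tendon neurectomy gate, so the tendon pools differed in this too.

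Macrophages of sensory ganglia lie around neuronal cell bodies and along blood vessels and nerve fibres, where they clear debris, present antigen and release cytokines that act on neurons and glia. They depend on the CSF1 receptor, whose ligands CSF1 and IL-34 are made by neighbouring cells. After nerve injury they are known to multiply and to be joined by monocytes from the blood, and they have been linked to neuropathic pain.

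The 474 gated barcodes held 1957573 UMIs. The median barcode had 3546.5 UMIs (quartiles 2886.5 and 4510.75) and 1493.5 genes. Their median mitochondrial share was 2.64%. Levels are given as the UMIs of a gene summed over a set of barcodes, scaled by the total UMIs of that set to the usual unit CPM. The median depth was 4233 UMIs for the tendon sham gate and 2050 UMIs for the tendon neurectomy gate. In the whole DRG library the total was 239515477 UMIs, against 133570956 UMIs for tendon sham and 79750679 UMIs for tendon neurectomy. The DRG library shared 189 barcode sequences with tendon sham and 153 with tendon neurectomy, of which 1 and 3 were gated in the DRG library, and no barcode was gated in both of a pair.

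The genes of the gate chose the barcodes, and their levels are a description. C1qa and C1qb, 2 chains of the complement protein C1q, reached 2966 and 3366 CPM in the gate, against 2.02 and 3.02 CPM in the other barcodes of the ganglion. Mrc1, the mannose receptor, had 817 CPM in the gate and 1.48 CPM in the rest. Cd68, a lysosomal glycoprotein, had 598 and 2.69 CPM in the same order. Adgre1, which encodes the F4/80 antigen, had 439 and 0.452 CPM, and Csf1r, the receptor for CSF1 and IL-34, had 431 and 0.930 CPM. All 6 genes were seen in 215 barcodes (45.4%), 5 in 162, 4 in 63 and 3 in 34 (7.17%). In tendon more barcodes passed with 3 genes, 288 in the sham gate (30.1%) and 321 in the neurectomy gate (36.5%), at median depths of 1575.5 and 1487 UMIs, against 3719.5 UMIs in the DRG gate. Just outside the gate stood 34 barcodes with 2 of the genes, where C1qa had 142 CPM and C1qb 279 CPM. The 34 barcodes just inside, with 3 of them, had 1297 CPM of C1qa and 1498 CPM of C1qb. A further 48 barcodes with 3 or more of the genes were kept out by a UMI of an excluded gene, which was Rbfox3 in 24 of them, Pecam1 in 22 and Pdgfra in 6, some barcodes holding more than 1.

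Of the 29 clusters of the DRG library, 1 was macrophage-like by its markers and held 571 barcodes, among them 468 of the 474 gated ones. Defining genes of T cells (Cd3d, Cd3g), endothelium (Kdr, Tie1), mast cells (Cpa3, Cma1, Mcpt4), red cells (Alas2) and tenocytes (Scx, Tnmd, Mkx) were at 0 UMIs in the gate. RNA of ganglion cells was present: the 9 satellite glia genes summed to 1420 CPM in the gate against 3153 CPM in the other barcodes, the 10 Schwann cell genes to 2421 against 6243 CPM, and the 10 neuronal genes to 527 against 9437 CPM. Most of it sat in few barcodes, since 28 barcodes with 20 or more UMIs of satellite glia genes held 88.2% of those UMIs, and 24 of these 28 were called doublets. The 23 barcodes with 20 or more UMIs of Schwann cell genes held 73.8% of that list's UMIs, and 10 of the 23 were called doublets. In all 33 gated barcodes (6.96%) were called doublets and were kept. A single barcode with 15387 UMIs held 97.6% of the neutrophil UMIs in the gate.

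The cluster also held 103 barcodes outside the gate, of which 78 had fewer than 3 of the gate genes. These 78 carried transcripts of conventional dendritic cells that the gate nearly lacked. Clec9a, a receptor for dead cells on cross-presenting dendritic cells, had 250 CPM in the 78 barcodes and 0.511 CPM in the gate. Flt3, the receptor that drives dendritic cell development, had 293 CPM against 1.02 CPM. Xcr1, the chemokine receptor of the same dendritic cells, had 160 CPM against 4.09 CPM. Il12b, a subunit of interleukin 12 and interleukin 23, had 396 CPM against 2.04 CPM. These 4 genes were chosen after their values were seen.

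Within the ganglion, the genes that stood highest over all other barcodes were those of tissue macrophages, which the gate selects for. Of 10676 genes that entered this description, with at least 50 summed UMIs and 10 CPM in the higher set, 1736 (16.3%) reached a 2-fold higher level in the gate and 4354 (40.8%) a 2-fold lower one. Ccl12, a monocyte-attracting chemokine, had 729 CPM in the gate and 0.275 CPM in the rest. C1qc, the remaining C1q chain, had 2205 CPM against 1.36 CPM. Ms4a7, a membrane protein of macrophages, had 931 CPM against 0.592 CPM. Fcrls, an Fc receptor-like scavenger gene best known from microglia, had 463 CPM against 0.393 CPM. Spic, a transcription factor needed for iron-recycling macrophages of the spleen, had 125 CPM against 0.0930 CPM. Hpgds, which makes prostaglandin D2, had 379 CPM against 0.456 CPM. The genes of the gate were left out of this ranking. The other genes among the 20 highest were Gnat3, Ccl24, Cbr2, Ccl3, Ms4a14, Il1a, Ccl4, Lilra5, Pf4, C3ar1, Folr2, Trem2, Ltc4s and Clec4n. Since the gate chose barcodes by genes of the same cells, nothing is tested here.

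The macrophages of the ganglion were then set against the barcodes taken by the same gate in tendon. Each group is a single library and allows no test, so a gene was called at a ratio of 2-fold or more, and each ratio carries an exact conditional binomial interval. Against tendon sham, 8779 genes entered, of which 846 (9.64%) reached a 2-fold higher level in the DRG gate and 2354 (26.8%) a 2-fold lower one, with a median log2 ratio of −0.43. Against tendon neurectomy, 8713 genes entered, of which 808 (9.27%) were higher and 2336 (26.8%) lower, with a median of −0.42. These medians varied with the barcodes kept. They were −0.29 and −0.32 among barcodes with at least 5000 UMIs, and −0.52 and −0.51 without barcodes called doublets. Leaving out doublets changed the DRG gate alone, to 441 barcodes, since none was called in the 957 and 879 tendon barcodes. Whether the medians stand for a shift of the whole scale was not tested. Scaling to the median sets it to 0 by construction. With ratios scaled to the median, 1408 genes were higher and 1379 lower against tendon sham, and 1350 were higher and 1385 lower against tendon neurectomy. Both comparisons use the same DRG library, so they are not independent of each other. Counts of gene lists below are to be read beside the shares over all genes, 9.64% and 9.27% higher and 26.8% lower.

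RNA of tissue cells was present in the tendon gates. The 8 fibroblast genes summed to 142 CPM in the DRG gate, against 8152 CPM in the tendon sham gate and 10024 CPM in the tendon neurectomy gate. The 6 tenocyte genes summed to 1.53 CPM in the DRG gate, against 1118 CPM in the tendon sham gate and 1549 CPM in the tendon neurectomy gate. Requiring 0 UMIs of 5 further genes, among them Fabp7, Col1a1, Cd79a and S100a8, left 351 DRG, 62 tendon sham and 46 tendon neurectomy barcodes, and the counts of called genes under that setting are given at the end. Among barcodes with all 6 gate genes, 215 in the DRG, 389 in the tendon sham and 210 in the tendon neurectomy gate, 668 genes were higher and 2412 lower against tendon sham, and 588 higher and 1818 lower against tendon neurectomy. The log2 ratio of H2-Aa was then 3.06 against tendon sham and 3.33 against tendon neurectomy, that of Ccl3 5.82 and 5.79, and that of Lyve1 −4.00 and −3.52. The level in the ungated tendon barcodes is given beside a gene where it was high.

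Genes of antigen presentation by MHC class II were higher in the ganglion. MHC class II molecules are pairs of an alpha and a beta chain that show peptides to CD4 T cells. Of the 11 genes of the list that entered against tendon sham, 6 were at least 2-fold higher (H2-Aa, H2-Ab1, H2-Eb1, H2-DMa, H2-DMb1 and Cd74) and 1 was lower, and the list's median log2 ratio was 1.50 beside −0.43 for all genes. Against tendon neurectomy the same 6 were higher and none was lower, with a median of 2.03 beside −0.42. Within the DRG library all 11 genes that entered were higher in the gate than in the rest.

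Cd74, the invariant chain that guides class II molecules to the endosome, had 15819 CPM (95% exact Poisson interval 15643 to 15996) in the DRG gate, 2195 CPM in the tendon sham gate and 1931 CPM in the tendon neurectomy gate. Its log2 ratio was 2.85 (95% interval 2.82 to 2.88) against tendon sham and 3.03 (3.00 to 3.07) against tendon neurectomy. The alpha chain gene H2-Aa had 6006 CPM in the DRG gate, 916 CPM in the tendon sham gate and 841 CPM in the tendon neurectomy gate, with log2 ratios of 2.71 (2.67 to 2.76) and 2.84 (2.78 to 2.89). H2-Eb1, a beta chain gene, had 7878 CPM in the DRG gate against 782 and 625 CPM in the tendon sham and neurectomy gates, and log2 ratios of 3.33 (3.29 to 3.38) and 3.66 (3.60 to 3.72). H2-DMa and H2-DMb1, which load peptides onto class II molecules, were higher by smaller ratios, at 346 and 274 CPM in the DRG gate, 111 and 96.7 CPM in the tendon sham gate, and 77.1 and 67.1 CPM in the tendon neurectomy gate. The transcriptional coactivator of the class II genes, Ciita, was not higher. It had 15.3 CPM in the DRG gate, 36.0 CPM in the tendon sham gate and 20.0 CPM in the tendon neurectomy gate, with log2 ratios of −1.23 (−1.83 to −0.69) and −0.39 (−1.04 to 0.24), from 30 UMIs in the DRG gate. The costimulatory gene Cd86 had 901 CPM in the DRG gate, 502 CPM in the tendon sham gate and 519 CPM in the tendon neurectomy gate, and stayed under 2-fold.

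To compare shares of barcodes, each barcode was thinned to 1000 UMIs. H2-Aa was then seen in 85.9% of the DRG gate (82.4 to 88.9%), 19.4% of the tendon sham gate and 21.4% of the tendon neurectomy gate. In myelinating Schwann-like barcodes of the ganglion, which should lack it, the share was 0.125%, at a median depth before thinning of 2134 UMIs against 3546.5 UMIs in the gate. Before thinning H2-Aa was seen in 91.8% of the gate. Class II transcripts were thus seen in most gated barcodes of the ganglion. Over the 15 alternative settings the log2 ratio of H2-Aa against tendon sham ran between 1.85 and 3.37.

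The promoters of the class II genes are shown for a motif they share. Each stretch runs 5′ to 3′ on the gene's strand from 130 to 11 bases before the annotated start in RefSeq (GRCm38.p6), and capitals mark CCAAT on either strand (ATTGG on the strand shown).
H2-Aa, chr17:34287834-34287953, minus strand: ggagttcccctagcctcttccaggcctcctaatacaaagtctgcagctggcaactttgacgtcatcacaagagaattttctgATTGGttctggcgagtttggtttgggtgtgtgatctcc
H2-Eb1, chr17:34305737-34305856, plus strand: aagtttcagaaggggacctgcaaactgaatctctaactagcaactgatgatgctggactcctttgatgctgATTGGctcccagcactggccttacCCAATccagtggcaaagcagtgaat
H2-DMb1, chr17:34153061-34153180, plus strand: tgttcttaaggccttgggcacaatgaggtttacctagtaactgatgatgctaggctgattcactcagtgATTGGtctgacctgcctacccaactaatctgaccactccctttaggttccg
The motif, found in the Y box of class II promoters, was present in all 5 class II genes with a promoter entry among 9 looked up. These were H2-Aa, H2-Eb1, H2-DMb1, H2-DMb2 and H2-Oa. Matches on either strand anywhere in the window counted, so a marked match need not be a Y box. CCAAT is also common: 37.4% of 32851 promoter windows of 300 bases hold it, and its presence is a description only.

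**Figure D1:**
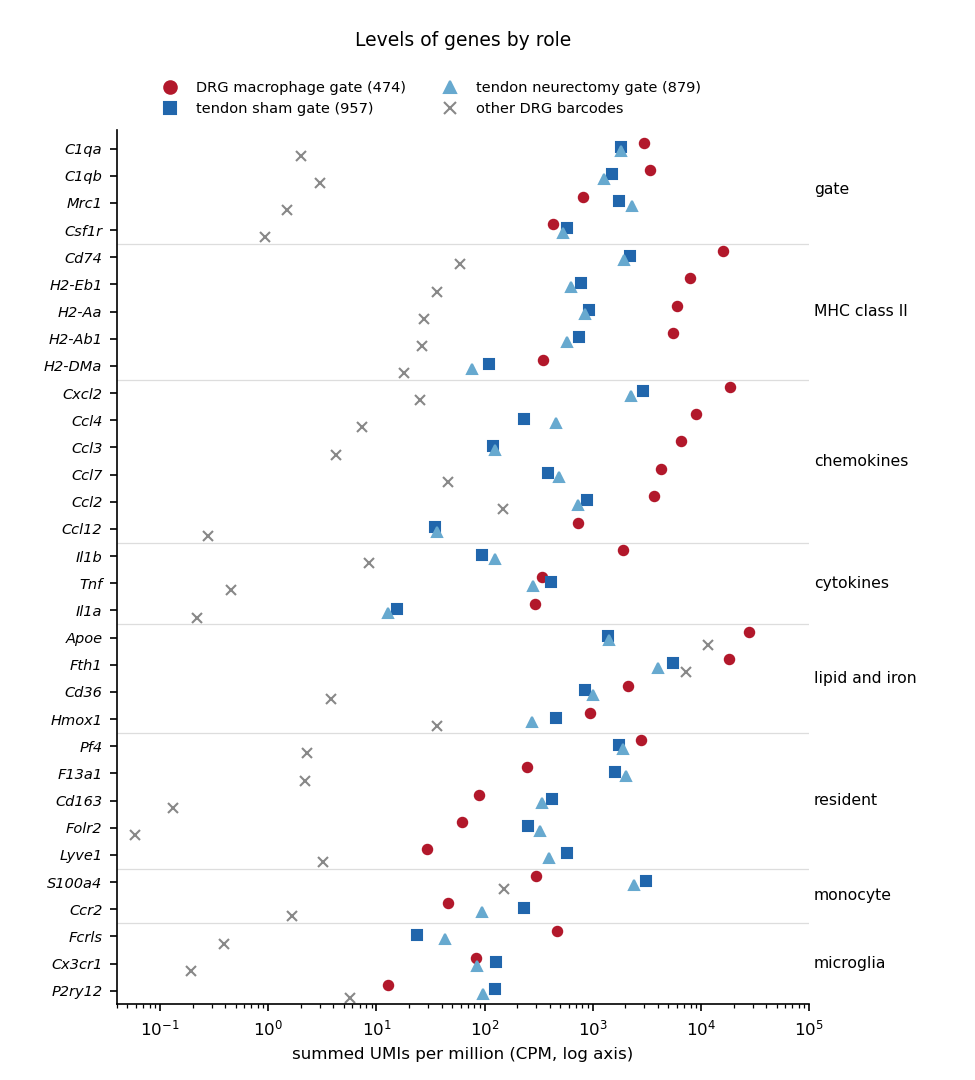
Summed level of selected genes (CPM, log axis) in the DRG macrophage gate, the tendon sham and neurectomy gates and the other DRG barcodes, grouped by role. Class II genes and chemokines lie to the right of both tendon gates in the DRG gate (Cd74 15819 against 2195 and 1931 CPM), and Lyve1, Folr2 and Cd163 to the left (Lyve1 29.1 against 582 and 396 CPM).

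Chemokines of myeloid cells were a further group that stood higher in the ganglion. Of 14 genes, 10 were at least 2-fold higher than in tendon sham and none lower, with a median log2 ratio of 1.78. Against tendon neurectomy 8 were higher and none lower, with a median of 1.95. The 4 that stayed under 2-fold in both were Ccl6, Ccl8, Ccl9 and Pf4. Over all genes 9.64% and 9.27% were higher, with medians of −0.43 and −0.42.

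The macrophage inflammatory protein genes were among the furthest. Ccl3, a chemokine that attracts monocytes and T cells, had 6476 CPM in the DRG gate, 120 CPM in the tendon sham gate and 125 CPM in the tendon neurectomy gate, which gave log2 ratios of 5.75 (5.66 to 5.85) and 5.70 (5.57 to 5.83). Ccl4, a close relative of Ccl3, had 9025 CPM in the DRG gate, 229 CPM in the tendon sham gate and 460 CPM in the tendon neurectomy gate, with log2 ratios of 5.30 (5.23 to 5.37) and 4.29 (4.23 to 4.37). Both genes were thus far higher in the DRG gate than in either tendon gate.

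The ligands of CCR2, which draw monocytes out of the blood, were also higher. Ccl7 had 4252 CPM in the DRG gate, 384 CPM in the tendon sham gate and 486 CPM in the tendon neurectomy gate. Ccl2 had 3685 CPM in the DRG gate, 884 CPM in the tendon sham gate and 730 CPM in the tendon neurectomy gate, with log2 ratios of 2.06 (2.01 to 2.11) and 2.34 (2.27 to 2.40). Ccl12 had 729 CPM in the DRG gate, 35.0 CPM in the tendon sham gate and 36.1 CPM in the tendon neurectomy gate. In the ganglion fibroblast-like barcodes had 2524 CPM of Ccl2 and mural-like barcodes 529 CPM.

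Neutrophil-attracting chemokines of the CXCR2 group, counted here in the inflammatory list, were higher as well. Cxcl2 had 18705 CPM (18514 to 18897) in the DRG gate, 2898 CPM in the tendon sham gate and 2274 CPM in the tendon neurectomy gate, with log2 ratios of 2.69 (2.67 to 2.71) and 3.04 (3.01 to 3.07). Cxcl3 had 579 CPM in the DRG gate, 19.0 CPM in the tendon sham gate and 11.8 CPM in the tendon neurectomy gate, with log2 ratios of 4.93 (4.68 to 5.19) and 5.62 (5.20 to 6.07). Cxcl1 had 1219 CPM in the DRG gate, 427 CPM in the tendon sham gate and 331 CPM in the tendon neurectomy gate. After thinning Cxcl2 was seen in 87.6% of the DRG gate, 43.8% of the tendon sham gate and 45.6% of the tendon neurectomy gate. In myelinating Schwann-like barcodes of the ganglion its share was 0.292%.

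Promoter stretches of Cxcl2 and Cxcl3 are printed because both hold GGAATTTCC, a form of the NF-kappaB motif, in capitals, within the same RefSeq window as above.
Cxcl2, chr5:90903769-90903888, plus strand: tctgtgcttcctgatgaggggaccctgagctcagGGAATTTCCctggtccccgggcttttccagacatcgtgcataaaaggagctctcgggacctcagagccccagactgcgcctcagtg
Cxcl3, chr5:90785971-90786090, plus strand: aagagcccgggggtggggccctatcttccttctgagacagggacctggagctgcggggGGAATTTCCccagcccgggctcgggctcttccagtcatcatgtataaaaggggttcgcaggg
The motif was searched on both strands. It occurred in 3 of the 8 chemokine and cytokine genes with a promoter entry among 11 looked up, which were Cxcl1, Cxcl2 and Cxcl3, and in 0.317% of all 32851 windows. The letters were not in the windows of Ccl3, Ccl12, Il1a, Il1b and Tnf.

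Of the inflammatory cytokines, Il1b and Il1a, the genes of interleukin 1, were higher in the ganglion. Il1b had 1918 CPM in the DRG gate, 94.5 CPM in the tendon sham gate and 125 CPM in the tendon neurectomy gate, with log2 ratios of 4.34 (4.23 to 4.46) and 3.94 (3.80 to 4.08). Il1a had 294 CPM in the DRG gate, 15.5 CPM in the tendon sham gate and 12.8 CPM in the tendon neurectomy gate. Tnf, a cytokine induced by many of the same stimuli, had 341 CPM in the DRG gate, 406 CPM in the tendon sham gate and 281 CPM in the tendon neurectomy gate, and its log2 ratios of −0.25 and 0.28 were under 2-fold. Cd14, the co-receptor for bacterial lipopolysaccharide, had 2912 CPM in the DRG gate, 352 CPM in the tendon sham gate and 327 CPM in the tendon neurectomy gate. Nfkbia, an inhibitor of NF-kappaB, had 670 CPM in the DRG gate, 1012 CPM in the tendon sham gate and 1018 CPM in the tendon neurectomy gate, under 2-fold. Tnfaip3 and Nfkbiz, regulators of the same pathway, were lower in both comparisons, and the cytokine gene Il10 was lower against tendon neurectomy alone. Tnfaip3, which encodes A20, had 151 CPM in the DRG gate, 434 CPM in the tendon sham gate and 430 CPM in the tendon neurectomy gate. Nfkbiz, a nuclear regulator of the pathway, had 247 CPM in the DRG gate, 796 CPM in the tendon sham gate and 724 CPM in the tendon neurectomy gate. Over the inflammatory list 7 of 16 genes were higher and 2 lower against tendon sham, with a median log2 ratio of 0.69, and 8 of 17 were higher and 3 lower against tendon neurectomy, with a median of 0.28. Il6 had 6.64 CPM in the DRG gate, 7.17 CPM in the tendon sham gate and 10.0 CPM in the tendon neurectomy gate.

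**Figure D2:**
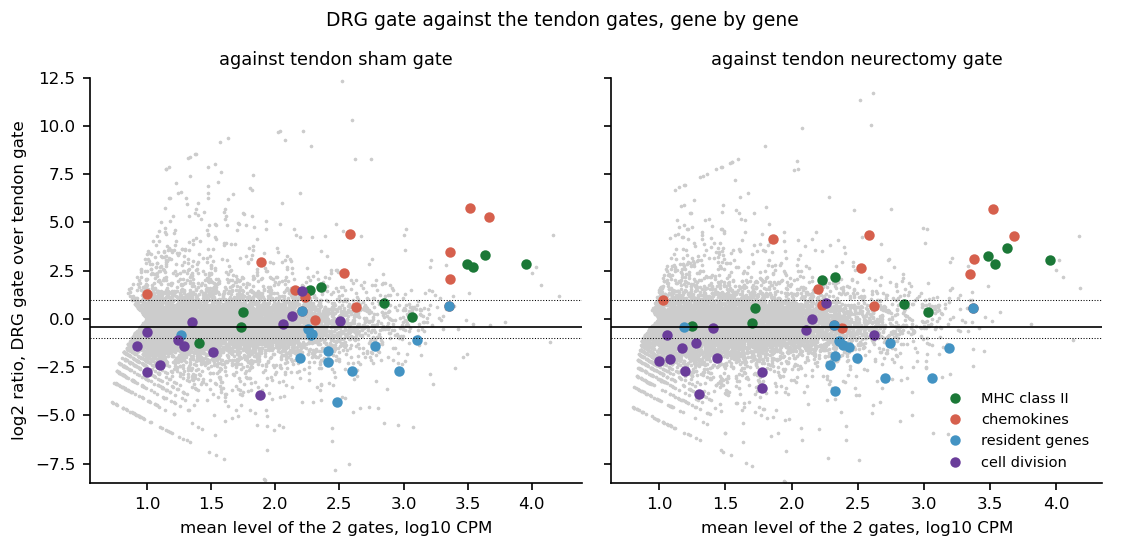
Log2 ratio of each gene in the DRG gate over the tendon sham gate (left) and the tendon neurectomy gate (right), against its mean level in both gates (log10 CPM); grey points are all genes that entered with a UMI in both gates, coloured points are 4 gene lists, the solid line is their median and the dotted lines mark 2-fold. Most MHC class II genes and chemokines lie above 2-fold, and most resident and cell division genes below the median.

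Genes of haem and iron handling were higher in the ganglion as well. Of 11 genes, 8 were at least 2-fold higher and 2 lower against tendon sham (median log2 ratio 1.74), and 7 were higher and 2 lower against tendon neurectomy (median 1.78). The ferritin chain genes Fth1 and Ftl1, which store iron and have near-identical pseudogenes that make their counts uncertain, had 18247 and 16835 CPM in the DRG gate, 5453 and 3199 CPM in the tendon sham gate, and 4027 and 2934 CPM in the tendon neurectomy gate. Fth1 was also high in the rest of the ganglion, at 7311 CPM. Slc11a1, the iron transporter of the phagosome, had 192 CPM in the DRG gate, 48.1 CPM in the tendon sham gate and 41.3 CPM in the tendon neurectomy gate. Trf, the iron carrier transferrin, had 458 CPM in the DRG gate, 89.8 CPM in the tendon sham gate and 110 CPM in the tendon neurectomy gate. Hmox1, which degrades haem, had 948 CPM in the DRG gate, 460 CPM in the tendon sham gate and 276 CPM in the tendon neurectomy gate, and its ratio against tendon sham came under 2-fold in 4 of 15 alternative settings. The exporter of iron, Slc40a1, had 46.0 CPM in the DRG gate, 8.32 CPM in the tendon sham gate and 27.0 CPM in the tendon neurectomy gate. In the opposite direction, the transferrin receptor Tfrc had 16.9 CPM in the DRG gate, 107 CPM in the tendon sham gate and 110 CPM in the tendon neurectomy gate. Lcn2, counted among the higher genes, came almost wholly from the barcode with neutrophil transcripts. Spic, noted above, had 125 CPM in the DRG gate, 1.15 CPM in the tendon sham gate and 2.25 CPM in the tendon neurectomy gate, and was seen in 127 gated DRG barcodes.

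Lipid genes were mixed. Apoe, the lipid carrier apolipoprotein E, had 27929 CPM (27695 to 28164) in the DRG gate, 1379 CPM in the tendon sham gate and 1416 CPM in the tendon neurectomy gate, with log2 ratios of 4.34 (4.31 to 4.37) and 4.30 (4.26 to 4.34). Apoe was abundant throughout the ganglion, with 11490 CPM in the other DRG barcodes, against 169 and 235 CPM in the other tendon sham and neurectomy barcodes, and the part of free RNA in its level was not tested. The scavenger receptor Cd36 had 2107 CPM in the DRG gate, 847 CPM in the tendon sham gate and 1006 CPM in the tendon neurectomy gate. The lysosomal lipase gene Lipa had 360 CPM in the DRG gate, 124 CPM in the tendon sham gate and 127 CPM in the tendon neurectomy gate. Lpl, which releases fatty acids from lipoproteins, was lower, at 69.0 CPM in the DRG gate, 331 CPM in the tendon sham gate and 540 CPM in the tendon neurectomy gate. Trem2, a lipid-sensing receptor, had 192 CPM in the DRG gate, 222 CPM in the tendon sham gate and 156 CPM in the tendon neurectomy gate. In all, 7 of 20 lipid genes were higher and 3 lower against tendon sham (median log2 ratio 0.47), and 5 of 19 were higher and 2 lower against tendon neurectomy (median 0.43).

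For complement, the C1q gene outside the gate, C1qc, had 2205 CPM in the DRG gate, 1428 CPM in the tendon sham gate and 1556 CPM in the tendon neurectomy gate, under 2-fold. The C5a receptor gene C5ar1 had 991 CPM in the DRG gate, 431 CPM in the tendon sham gate and 417 CPM in the tendon neurectomy gate. The complement list had 2 higher and 3 lower genes of 13 against tendon sham and 3 higher and 5 lower of 13 against tendon neurectomy, with medians of 0.46 and −0.67. C1qb, a gene of the gate, is 1 of the higher ones in both, and C1qa is in the list too. Vsig4, a complement receptor of resident macrophages, counts among the lower genes with 0 UMIs in the DRG gate, against 134 CPM in the tendon sham gate and 65.4 CPM in the tendon neurectomy gate. It had 8 UMIs in the whole DRG library.

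Fc receptors and pattern recognition leaned higher in the main setting, with 6 of 14 genes higher and 1 lower in each comparison. The medians were 0.54 against tendon sham and 0.77 against tendon neurectomy, beside −0.43 and −0.42 for all genes. Among barcodes with at least 5000 UMIs the list medians were −0.017 and −0.022. Fcer1g, the signalling chain shared by activating Fc receptors, had 2428 CPM in the DRG gate, 898 CPM in the tendon sham gate and 813 CPM in the tendon neurectomy gate. Fcgr4, a receptor for IgG, had 40.9 CPM in the DRG gate, 7.17 CPM in the tendon sham gate and 2.75 CPM in the tendon neurectomy gate. Clec7a, the beta-glucan receptor Dectin-1, had 167 CPM in the DRG gate, 37.4 CPM in the tendon sham gate and 42.1 CPM in the tendon neurectomy gate. The lower gene was Tlr4, the lipopolysaccharide receptor, at 17.9 CPM in the DRG gate, 77.7 CPM in the tendon sham gate and 89.6 CPM in the tendon neurectomy gate.

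**Figure D3:**
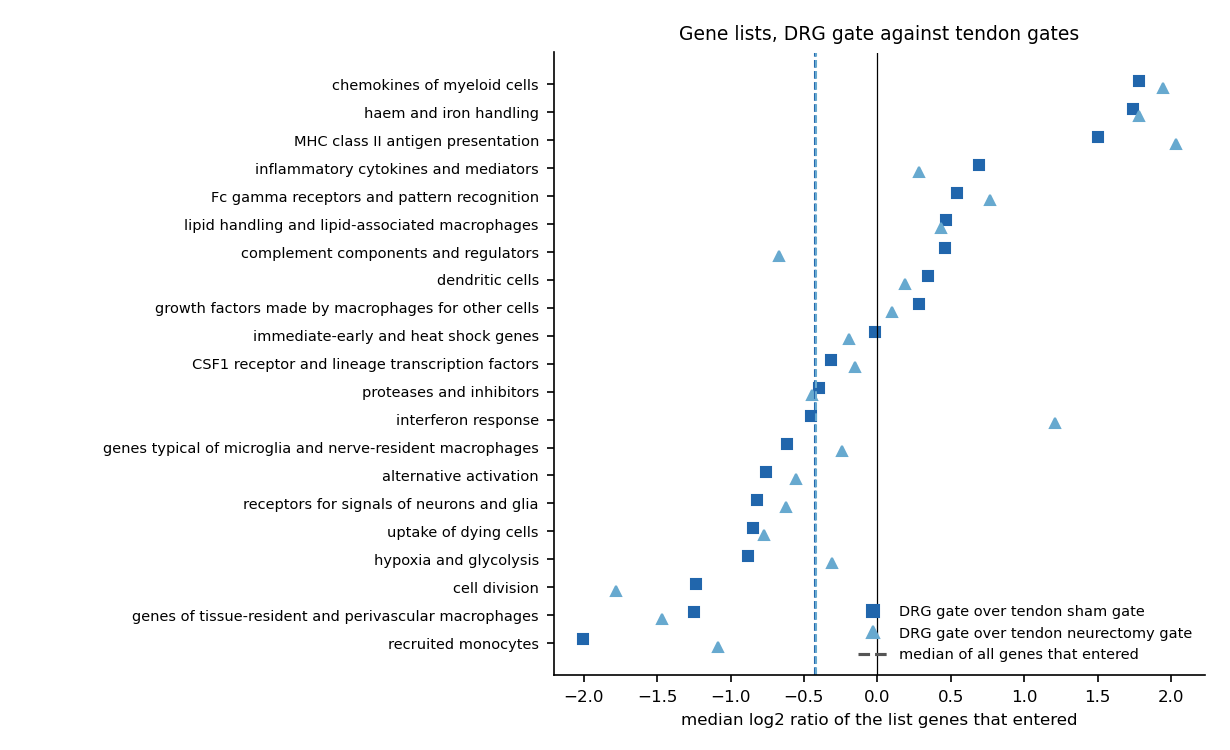
Median log2 ratio of the genes of 21 lists, DRG gate over tendon sham gate (squares) and over tendon neurectomy gate (triangles), with the median of all genes that entered as dashed lines at −0.43 and −0.42. Chemokines, haem and iron handling and MHC class II stand at 1.50 to 2.03, and genes of resident macrophages at −1.25 and −1.47.

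Genes of tissue-resident and perivascular macrophages were lower in the ganglion. None of the 14 genes that entered was at least 2-fold higher in either comparison, while 8 were lower against tendon sham and 11 against tendon neurectomy, with medians of −1.25 and −1.47. Within the ganglion 14 of 15 were higher in the gate than in the rest. These counts include Mrc1, a gene of the gate.

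Lyve1, a hyaluronan receptor of perivascular macrophages and lymphatic vessels, had 29.1 CPM (22.1 to 37.7) in the DRG gate, 582 CPM in the tendon sham gate and 396 CPM in the tendon neurectomy gate. Its log2 ratios were −4.32 (−4.72 to −3.94) and −3.76 (−4.17 to −3.38). After thinning it was seen in 1.90% of the DRG gate (0.872 to 3.57%) and in 22.3% of each tendon gate. Endothelial-like barcodes of the ganglion had a share of 0.767% and fibroblast-like ones 1.40%. The median depth before thinning was 9803 UMIs in endothelial-like and 3889 UMIs in fibroblast-like barcodes. The other tendon barcodes had 78.7 CPM of Lyve1 in tendon sham and 79.8 CPM in tendon neurectomy.

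The haemoglobin scavenger receptor Cd163 had 89.4 CPM in the DRG gate, 422 CPM in the tendon sham gate and 339 CPM in the tendon neurectomy gate, with log2 ratios of −2.24 (−2.47 to −2.02) and −1.92 (−2.16 to −1.69). Folr2, a folate receptor of resident macrophages, had 61.8 CPM in the DRG gate, 251 CPM in the tendon sham gate and 325 CPM in the tendon neurectomy gate. F13a1, a coagulation factor subunit made by macrophages, had 245 CPM in the DRG gate, 1614 CPM in the tendon sham gate and 2041 CPM in the tendon neurectomy gate. The other tendon barcodes had little Cd163, at 5.60 CPM in tendon sham and 8.17 CPM in tendon neurectomy, and the same held for Folr2. Gas6, a bridge between dying cells and their receptors, had 124 CPM in the DRG gate, 396 CPM in the tendon sham gate and 501 CPM in the tendon neurectomy gate, where the other barcodes also had 204 and 222 CPM. The macrophage transcription factor gene Maf had 108 CPM in the DRG gate, 690 CPM in the tendon sham gate and 906 CPM in the tendon neurectomy gate. Pf4, a chemokine counted in this list as well, was not lower, at 2797 CPM in the DRG gate, 1760 CPM in the tendon sham gate and 1887 CPM in the tendon neurectomy gate.

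Genes of recruited monocytes were mostly lower too. Of 8 genes that entered against tendon sham 5 were lower and 1 higher (median −2.00), and of 7 against tendon neurectomy 5 were lower and 2 higher (median −1.08). The lower genes were Ccr2, Fn1, Vcan, Itga4 and S100a4 in both comparisons. Ccr2, the receptor that brings monocytes into tissue, had 45.5 CPM in the DRG gate, 232 CPM in the tendon sham gate and 94.2 CPM in the tendon neurectomy gate, with log2 ratios of −2.35 (−2.67 to −2.04) and −1.05 (−1.40 to −0.71). Against tendon neurectomy the ratio of Ccr2 came under 2-fold in 7 of 15 settings. S100a4, a calcium-binding protein of monocytes and fibroblasts, had 297 CPM in the DRG gate, 3084 CPM in the tendon sham gate and 2420 CPM in the tendon neurectomy gate. In the other tendon barcodes it was higher still, at 3842 and 3232 CPM, and its source in the tendon gates was not tested. Fn1 was also among the 10 highest genes of a fibroblast-like cluster of the ganglion. Its log2 ratio against tendon sham ran between −8.12 and −0.74 over 15 settings and came under 2-fold in 2 of them. The part of fibroblast RNA in the levels of Fn1 and Vcan in the tendon gates was not tested. Chil3 was higher, but 58 of its 128 UMIs in the DRG gate lay in 1 barcode.

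Of the genes typical of microglia, Fcrls and Tyrobp were higher in both comparisons, and 5 of the 12 genes that entered were lower in each (medians −0.61 and −0.24). Over all genes 26.8% were lower in each, with medians of −0.43 and −0.42. The lower genes of the list were P2ry12, Gpr34, Olfml3, Sparc and P2ry13 in both comparisons. Sparc was also lower in the DRG gate than in the other DRG barcodes, and the part of tissue cell RNA in these levels was not tested. Fcrls had 463 CPM in the DRG gate, 23.6 CPM in the tendon sham gate and 42.8 CPM in the tendon neurectomy gate, with log2 ratios of 4.30 (4.07 to 4.53) and 3.43 (3.20 to 3.68). After thinning 36.3% of the DRG gate held a UMI of it, against 1.88% of the tendon sham gate and 4.55% of the tendon neurectomy gate. Of 7180 myelinating Schwann-like barcodes of the ganglion, 0 held one after thinning, for which a count of 0 allows a share of up to 0.0418%, and 3 held one before thinning. P2ry12, an ADP receptor that marks microglia in the brain, had 12.8 CPM in the DRG gate, 126 CPM in the tendon sham gate and 97.2 CPM in the tendon neurectomy gate. Cx3cr1, the fractalkine receptor, had 83.3 CPM in the DRG gate, 127 CPM in the tendon sham gate and 84.4 CPM in the tendon neurectomy gate, under 2-fold in both. Sall1, a transcription factor of microglia, had 0 UMIs in the DRG gate, and Tmem119 had 2.55 CPM.

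In the list of CSF1 receptor, CSF receptor and lineage transcription factor genes, which holds the gate gene Csf1r, 2 of 14 genes were higher (Cebpb and Spi1) and 5 lower in both comparisons, among them Klf4, Klf2, Nr4a1 and Maf (medians −0.32 and −0.15). Cebpb, which drives inflammatory genes, had 2792 CPM in the DRG gate, 434 CPM in the tendon sham gate and 365 CPM in the tendon neurectomy gate. Spi1, which encodes the myeloid factor PU.1, had 917 CPM in the DRG gate, 383 CPM in the tendon sham gate and 340 CPM in the tendon neurectomy gate. Klf4 had 84.8 CPM in the DRG gate, 743 CPM in the tendon sham gate and 803 CPM in the tendon neurectomy gate, near the 904 and 945 CPM of the other tendon barcodes.

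In the list of genes for the uptake of dying cells 2 of 11 were higher and 5 lower in each comparison (medians −0.85 and −0.77). Over all genes 26.8% were lower in each, with medians of −0.43 and −0.42. Axl, a receptor for Gas6, had 168 CPM in the DRG gate, 45.1 CPM in the tendon sham gate and 67.1 CPM in the tendon neurectomy gate. Mertk, its relative, had 73.6 CPM in the DRG gate, 148 CPM in the tendon sham gate and 125 CPM in the tendon neurectomy gate. Axl was thus higher in the ganglion and Mertk lower and under 2-fold against tendon neurectomy.

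Genes of cell division were low in the ganglion macrophages. Mki67, present in dividing cells, had 9.20 CPM in the DRG gate, 144 CPM in the tendon sham gate and 111 CPM in the tendon neurectomy gate, from 12 DRG barcodes with a UMI. Of 14 genes 8 were lower and 1 higher against tendon sham (median −1.23), and of 16 genes 10 were lower and none higher against tendon neurectomy (median −1.78). The higher gene was Stmn1, which is also a neuronal gene and had 1245 CPM in the other DRG barcodes against 235 CPM in the gate. Among barcodes with at least 5000 UMIs, 91 in the DRG gate and 458 in the tendon sham gate, the median against tendon sham was 0.19.

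Interferon-induced genes had no stable direction against tendon sham. Against tendon sham 4 of 14 were higher and 6 lower (median −0.45), and against tendon neurectomy 6 of 11 were higher and none lower (median 1.21). With barcodes thinned to 1000 UMIs the median against tendon sham was 1.13, and with 0 UMIs of 5 further genes it was 1.39. Bst2, which tethers budding viruses, had 517 CPM in the DRG gate, 90.5 CPM in the tendon sham gate and 67.9 CPM in the tendon neurectomy gate. Ifit2 had 10.7 CPM in the DRG gate, 33.3 CPM in the tendon sham gate and 7.51 CPM in the tendon neurectomy gate. Whether the 2 comparisons differ was not tested.

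Immediate-early and heat shock genes, which tissue digestion is known to raise, were split. Of 18 genes 6 were higher and 6 lower against tendon sham, and 5 higher and 7 lower against tendon neurectomy (medians −0.02 and −0.19). Fos had 856 CPM in the DRG gate, 2058 CPM in the tendon sham gate and 2145 CPM in the tendon neurectomy gate. Egr1 had 200 CPM in the DRG gate, 801 CPM in the tendon sham gate and 1136 CPM in the tendon neurectomy gate. The near-identical heat shock genes Hspa1a and Hspa1b, whose reads the counting may split, had 267 and 519 CPM in the DRG gate, 109 and 97.3 CPM in the tendon sham gate, and 115 and 88.4 CPM in the tendon neurectomy gate. Chemokine and cytokine genes are also known to be raised by digestion, and its part in their levels was not tested.

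Growth factor genes that act on other cells were mixed, with 7 of 14 higher and 4 lower against tendon sham and 6 of 14 higher and 5 lower against tendon neurectomy (medians 0.29 and 0.10). Over all genes 9.64% and 9.27% were higher and 26.8% lower in each, with medians of −0.43 and −0.42. Pdgfa, a mitogen of mesenchymal cells, had 155 CPM in the DRG gate, 36.5 CPM in the tendon sham gate and 43.8 CPM in the tendon neurectomy gate. Bmp2 had 111 CPM in the DRG gate, 25.1 CPM in the tendon sham gate and 36.3 CPM in the tendon neurectomy gate. Osm, which encodes oncostatin M, had 73.0 CPM in the DRG gate, 25.7 CPM in the tendon sham gate and 17.8 CPM in the tendon neurectomy gate. Pdgfc was lower, at 28.1 CPM in the DRG gate, 120 CPM in the tendon sham gate and 121 CPM in the tendon neurectomy gate. Bdnf, a neurotrophin gene, had 3.07 CPM in the DRG gate.

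The remaining lists gave no common direction. Over all genes 9.64% and 9.27% were higher and 26.8% lower in each comparison, with medians of −0.43 and −0.42. Alternative activation had 4 of 9 genes higher and 4 lower against tendon sham and 2 of 10 higher and 4 lower against tendon neurectomy (medians −0.76 and −0.55). Mrc1, a gene of the gate, is among its lower genes in both. Mgl2, a C-type lectin, was among the higher ones at 447 CPM in the DRG gate, 167 CPM in the tendon sham gate and 179 CPM in the tendon neurectomy gate, while Retnla, at 305 CPM in the DRG gate, 49.9 CPM in the tendon sham gate and 424 CPM in the tendon neurectomy gate, had 372 of its 597 DRG UMIs in 1 barcode. Proteases and inhibitors had 3 of 11 higher in each comparison and 5 and 4 lower (medians −0.40 and −0.45). Hypoxia and glycolysis had 1 of 12 higher and 4 lower against tendon sham and 3 of 12 lower against tendon neurectomy (medians −0.88 and −0.31). Dendritic cell genes had 2 of 8 higher and 2 lower against tendon sham and 2 of 7 higher and 1 lower against tendon neurectomy (medians 0.35 and 0.19).

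Some of the furthest genes rest on few cells or on the annotation. Both kinds of file shared 23145 features by symbol, of which 8779 entered against tendon sham and 8713 against tendon neurectomy. Among genes that entered both comparisons, without mitochondrial, ribosomal, haemoglobin and sex-linked ones, 667 passed 2-fold upwards in both and 1859 downwards. Of the 15 highest that were also higher in the gate than in the other DRG barcodes, 6 (S100a9, Ngp, Camp, S100a8, Wfdc21 and Lcn2) had at least 90% of their DRG UMIs in the barcode with neutrophil transcripts, and the rest included Spic, Ccl3, Cxcl3, Ccl12, Gm20594, Zbtb8b, Exosc6 and Chtf8. Bcl2a1b, an anti-apoptotic gene with near-identical copies that make its count uncertain, had 2026 CPM in the DRG gate, 78.9 CPM in the tendon sham gate and 80.9 CPM in the tendon neurectomy gate. Of the 15 lowest, 8 had fewer than 50 UMIs in the whole DRG library. Atp6v0c, a subunit of the proton pump of every cell, was one of the lowest at 6.64 CPM in the DRG gate, 544 CPM in the tendon sham gate and 507 CPM in the tendon neurectomy gate. It had 2.33 CPM in the other DRG barcodes, so tissue and annotation cannot be told apart for such genes. Beside Vsig4 and Atp6v0c the 15 were 9930111J21Rik2, Ccdc152, Mia2, Klf8, Evi2b, Tnfsf13, Rbm4, Gm26740, Slc2a9, Trpm1, Cdc25b, Glp2r and Gm14221.

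Transcripts varied among the gated barcodes. At 1000 UMIs per barcode, Apoe ranged up to 137 UMIs with a median of 24 (quartiles 14 and 38), and Cd74 up to 55 with a median of 18 (quartiles 9 and 26). The top 10% of barcodes held 24.1% of the Apoe and 22.1% of the Cd74 UMIs. The chemokines were concentrated: Ccl4 had a median of 2 UMIs (quartiles 0 and 11) and a highest value of 148, with 56.1% of its UMIs in the top 10% of barcodes. For Ccl12 the corresponding share was 81.7%, for Il1b 51.9% and for Cxcl2 32.7%. Class II genes varied together (H2-Aa with Cd74, Pearson's r 0.74 and Spearman's rho 0.78 over 474 barcodes), and so did Ccl3 and Ccl4 (r 0.76, rho 0.68). These correlations are a description, since all barcodes share 1 library.

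**Figure D4:**
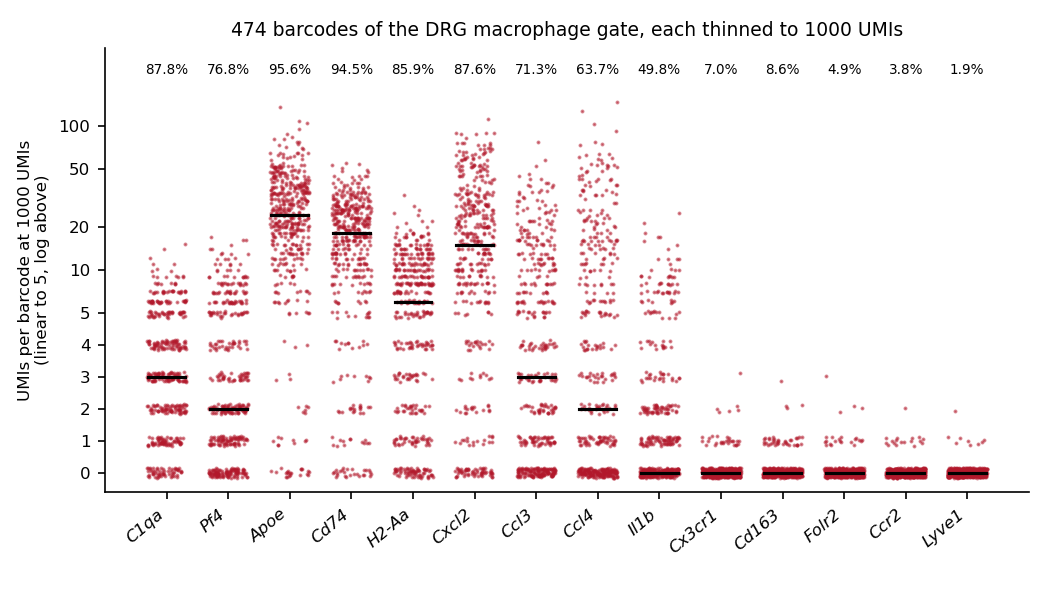
UMIs of 14 genes in each of the 474 gated DRG barcodes after thinning to 1000 UMIs (linear to 5, log above), with the median as a bar and the share of barcodes with a UMI above. Apoe, Cd74 and H2-Aa are present in 85.9 to 95.6% of barcodes, Ccl4 in 63.7% with a wide spread, and Lyve1 in 1.90%.

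To see what went with the rarer genes, the gated DRG barcodes were split by a UMI of 1 gene at a time, and the other genes were compared as summed CPM among 5101 genes that entered. Lyve1 marked 23 barcodes (4.85%), with a median of 4793 UMIs, against 3477 UMIs in the 451 without it. In this split 407 genes (7.98%) reached 2-fold above and 529 (10.4%) 2-fold below in the barcodes with Lyve1. Of 8 resident genes looked at in this split, 6 were at least 2-fold higher, while Pf4 had 2791 CPM with Lyve1 and 2797 CPM without and Mrc1 1217 and 790 CPM. Folr2 had 493 CPM in barcodes with Lyve1 and 32.2 CPM in those without, Cbr2 612 and 115 CPM, F13a1 819 and 205 CPM, and the chemokine Ccl8 930 and 133 CPM. Class II genes were lower. H2-Aa had 803 CPM in barcodes with Lyve1 against 6363 CPM in those without, a log2 ratio of −2.99 (−3.28 to −2.70), and Cd74 had 2974 against 16701 CPM. Glial RNA moved with this split, as Fabp7, a satellite glia gene, had 1797 CPM in the barcodes with Lyve1 and 584 CPM in those without, and its part was not tested.

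Folr2, a split added after the values were seen, marked 53 barcodes and gave 214 genes (4.2%) higher and 288 (5.65%) lower. H2-Aa had 2327 CPM in barcodes with Folr2 and 6534 CPM in those without, Cd74 had 7143 against 17065 CPM, and Ccl8 had 883 against 84.1 CPM. Of the 23 barcodes with Lyve1, 16 also held Folr2, which is 69.6% of the Lyve1 barcodes and 30.2% of the Folr2 barcodes. Barcodes with either resident gene thus had more of the other and fewer class II transcripts.

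The split by H2-Aa itself put 435 barcodes against 39 without it and gave 299 genes (5.86%) higher and 193 (3.78%) lower. Cd74 had 17342 CPM in barcodes with H2-Aa and 836 CPM in those without, and H2-Eb1 8672 and 60.9 CPM. The 39 barcodes without H2-Aa were richer in Folr2, at 42.8 CPM with H2-Aa and 249 CPM without, and in Ccl8, at 140 and 626 CPM. Their median depth was 3950 UMIs, against 3488 UMIs in the barcodes with H2-Aa.

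Ccr2 marked 48 barcodes (10.1%), with 205 genes (4.02%) higher and 415 (8.14%) lower. In the barcodes with Ccr2 the monocyte gene S100a4 was higher, at 1490 CPM with Ccr2 and 130 CPM without. Cd209a, a lectin of monocyte-derived dendritic cells, had 266 CPM with Ccr2 and 19.2 CPM without. Class II was not lower here, as H2-Aa had 8200 CPM with Ccr2 against 5699 CPM without. Genes common to the other macrophages were lower, with Apoe at 11126 CPM with Ccr2 and 30280 CPM without, Pf4 at 903 and 3062 CPM, and Ccl4 at 3309 and 9825 CPM. No barcode held both Ccr2 and Lyve1. Fn1, at 857 CPM with Ccr2 and 54.2 CPM without, came from 7 barcodes with Ccr2.

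Cd163 marked 110 barcodes (23.2%) with 55 genes (1.08%) higher and 146 (2.86%) lower. Ccl24, an eosinophil-attracting chemokine, had 515 CPM with Cd163 and 120 CPM without. Lyve1 had 71.0 CPM with Cd163 and 16.6 CPM without, and 13 of the 23 Lyve1 barcodes held Cd163. H2-Aa had 4572 CPM with Cd163 and 6435 CPM without.

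Cx3cr1 marked 101 barcodes (21.3%), with 106 genes (2.08%) higher and 76 (1.49%) lower. Many of the furthest genes came from 1 barcode: among the highest, Tac1, a neuropeptide gene, had 130 of its 135 UMIs and Robo2, an axon guidance receptor gene, 146 of its 154 UMIs in 1 barcode with Cx3cr1. Among the lowest, S100a8, S100a9, Camp and Ngp had 0 UMIs with Cx3cr1, and the barcode with neutrophil transcripts was among those without it. Fn1 had 0 UMIs with Cx3cr1 and 200 CPM without, and S100a4 had 97.5 CPM with it and 358 CPM without. Ccl4 had 5915 CPM with Cx3cr1 and 9984 CPM without. H2-Aa had 5453 CPM with Cx3cr1 and 6176 CPM without. Splitting by 1 UMI depends on depth, since a barcode without a UMI may still express the gene.

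Ligands and receptors were set side by side over the classes of the ganglion. For the CSF1 receptor, Csf1 was spread over fibroblast-like (32.4 CPM), nonmyelinating Schwann-like (31.7 CPM), endothelial-like (28.6 CPM) and satellite glia-like barcodes (24.6 CPM), against 4.09 CPM in the macrophages. Il34 was highest in mural-like barcodes at 217 CPM, followed by myelinating Schwann-like ones at 70.9 CPM, and had 5.11 CPM in the macrophages. Cx3cl1, the ligand of Cx3cr1, was highest in endothelial-like barcodes at 106 CPM.

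The inhibitory ligand Cd200 was highest in endothelial-like (718 CPM) and nonmyelinating Schwann-like barcodes (392 CPM), while its receptor gene Cd200r1 had 26.6 CPM in the macrophages and 133 CPM in T and NK-like barcodes. Pros1, a ligand of Mertk and Axl, was highest in nonmyelinating Schwann-like barcodes at 369 CPM. Axl was highest in the macrophages at 168 CPM, followed by fibroblast-like barcodes at 114 CPM, whereas Mertk was highest in endothelial-like barcodes at 550 CPM. The neuropeptide gene Calca had 2422 CPM in neuron-like barcodes. Of its receptor genes, Ramp1 had 53.6 CPM and Calcrl 28.1 CPM in the macrophages. Ramp1 was highest in neutrophil-like barcodes at 166 CPM, followed by fibroblast-like ones at 139 CPM and T and NK-like ones at 115 CPM. Calcrl was highest in endothelial-like barcodes at 618 CPM. Tgfb1 was highest in the macrophages at 247 CPM, followed by endothelial-like barcodes at 197 CPM.

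Fgf1, the growth factor named in the title of the study, had 10.7 CPM in the macrophages, from 21 UMIs, against 190 CPM in mural-like, 155 CPM in myelinating Schwann-like and 140 CPM in neuron-like barcodes. Fgfr1, its receptor gene, had 32.7 CPM in the DRG gate, 278 CPM in the tendon sham gate and 251 CPM in the tendon neurectomy gate, where the other tendon barcodes had 305 and 355 CPM. Of the 19 receptor genes for neuronal and glial signals that entered, 2 were higher and 9 lower against tendon sham, and 2 were higher and 7 lower against tendon neurectomy (medians −0.82 and −0.62). Over all genes 9.64% and 9.27% were higher and 26.8% lower in each, with medians of −0.43 and −0.42.

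**Figure D5:**
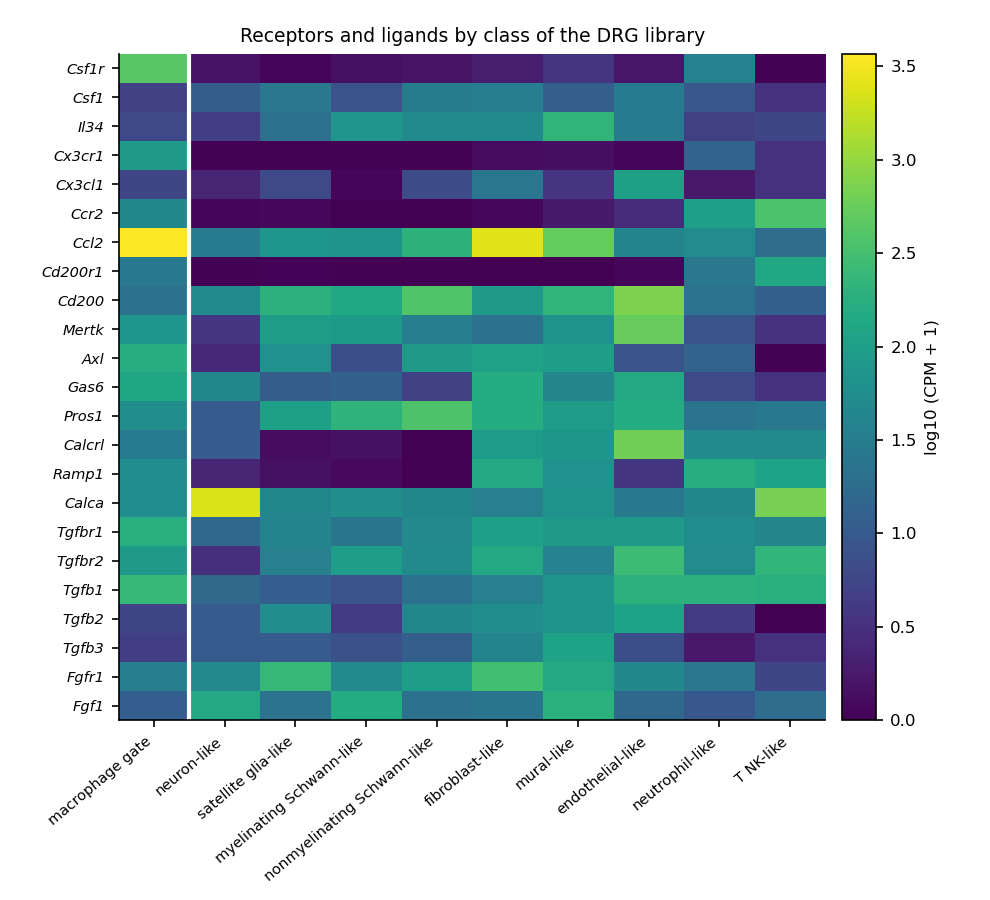
Level (log10 of CPM + 1) of receptor and ligand genes in the DRG macrophage gate (left column) and in the other classes of the DRG library. Csf1r and Axl are highest in the macrophages, Il34 in mural-like, Cd200, Mertk and Calcrl in endothelial-like and Calca in neuron-like barcodes.

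The vector was nearly absent from the macrophages. Of its 12601 UMIs in the DRG library, the 474 gated barcodes held 2, in 2 barcodes (0.422%, 0.0511 to 1.52%). Thinned to the same depth, neuron-like barcodes had a share of 2.90%, fibroblast-like ones 1.59%, satellite glia-like ones 0.156% and myelinating Schwann-like ones 0.0418%. The share in the macrophages cannot be told apart from that of the glial classes at this depth.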

How the data were processed

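The deposited matrices hold UMI counts per gene and barcode as deposited; per the file headers, the authors ran Cell Ranger 8.0.1, and no normalization was found. The submitters' processing notes list mm10 and GRCm39, with no role for either, and alignment settings and annotation were not given in the sources used here. From these counts, the gate, CPM sums, exact intervals (95%) and ratios were computed with Python 3.11.15, numpy 2.4.6, scipy 1.17.1 and pandas 2.3.3. Genes entered with at least 50 summed UMIs and 10 CPM in the higher group, and DRG and tendon features were joined by symbol. Clusters were made with scanpy 1.11.5 (2000 variable genes, 30 components, 15 neighbours, Leiden resolution 1). Scrublet called 2.43% of DRG barcodes of at least 1000 UMIs as doublets, which were kept, and 0 in the tendon libraries, where the caller did not work. With 1 library per group there was no test. The text names the 15 highest and 15 lowest genes past 2-fold in the same direction against both tendon gates (leaving out mitochondrial, ribosomal, haemoglobin and sex-linked genes and those lower in the gate than in other barcodes of the higher library), the 20 highest over the ganglion, and members of gene lists. Members and lists were chosen with earlier results of these data known. Scripts were tested on simulated data. Values of some genes are not reported here.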

Additional observations from a re-analysis of the deposited data

How the results depend on the processing

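Of 2284 values recomputed under 24 settings, 3 that lay past 2-fold took the other sign. These were the median log2 ratio of cell division genes against tendon sham among barcodes with at least 5000 UMIs (0.19) and the medians of monocyte genes with no filter on low counts (0.25 against tendon sham and 0.24 against tendon neurectomy). Of 630 list medians recomputed, 41 lay under 2-fold in the main setting and took the other sign. The same held for 28 of 1560 gene ratios, and both totals include values past 2-fold. Lists of this kind were complement, dendritic cells, growth factors, interferon, CSF1 receptor and lineage factors, and immediate-early genes. Further ones were Fc receptors and pattern recognition, microglia, proteases and inhibitors, and hypoxia and glycolysis. The genes were Tnf, Trem2, Pf4, Ctss, C1qc, Adgre1, Csf1r and Cx3cr1. The directions of these lists and genes are not stable. Of 1245 gene ratios past 2-fold, none took the other sign and 45 came within 2-fold. Requiring 5000 UMIs left 91 gated DRG barcodes. Against tendon sham the higher and lower genes numbered 436 and 1180 after thinning, 2826 and 6399 with no filter, 507 and 1047 with 0 UMIs of 5 further genes, and 1408 and 1379 with scaling to the median. Against tendon neurectomy they numbered 431 and 1159, 3024 and 6045, 492 and 762, and 1350 and 1385 under the same settings. Set against other immune-like clusters alone, 1076 genes were higher in the gate. Settings chosen after seeing the data gave 569 higher and 2884 lower genes against tendon sham without mixed barcodes, and 548 and 2783 against tendon neurectomy. Mixed barcodes were taken out of the DRG gate alone, which left 422 DRG barcodes and all 957 and 879 tendon barcodes. No paired analysis was possible because each group is 1 library. For the same reason no replicate could be left out, and intervals cover counting error only. The cause of these shifts was not tested.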

Other observations

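Gdf15, a stress-induced hormone of the TGF-beta family, had 882 CPM in the DRG gate, 45.6 CPM in the tendon sham gate and 60.1 CPM in the tendon neurectomy gate. It was seen in 205 gated DRG barcodes. Vcam1, an adhesion molecule also made by iron-recycling macrophages, had 166 CPM in the DRG gate, 4.87 CPM in the tendon sham gate and 10.3 CPM in the tendon neurectomy gate. Both genes were chosen after their values were seen.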
